A study of Mus musculus with 16 samples.

Results

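The genes described here encode the nuclear-encoded subunits of the mitochondrial respiratory chain and of the ATP synthase, measured in cultured adult neural stem cells of the mouse. Members were chosen by name alone: probe sets listed with 1 gene symbol that begins with Ndufa, Ndufb, Ndufc, Ndufs or Ndufv, with Sdh followed by a to d, with Uqcr, with Atp5, or with Cox4 to Cox8 followed by i, a, b or c. Assembly factors and pseudogenes were left out. This gave 79 genes of the 12393 genes on the array, represented by 150 probe sets; 35 genes had 1 probe set and 44 had several, of which the probe set with the highest mean signal was used. Of the 79 genes, 34 belong to complex I, 4 to complex II, 8 to complex III, 16 to complex IV and 17 to the ATP synthase. A further 8 probe sets named for such genes were listed with several symbols and were left out.

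The study asked which expression in these cells needs Tlx (Nr2e1), an orphan nuclear receptor known for keeping adult neural stem cells proliferating and undifferentiated. The cultures were labelled Tlx(f/Z;CreER), where CreER is a Cre recombinase that 4-hydroxytamoxifen (4OH-TM in the labels, 4OHT below) activates, or Tlx(f/Z) without Cre, so that the f and Z alleles were common to every group. Each genotype received 4OHT or vehicle and was collected at 36 h or 60 h, which made 8 groups of 2 arrays and 16 arrays in all. The animals' age and the promoter that drives CreER are not given in the sources used here. The paired arrays are called biological replicates with no word on whether different animals supplied them. The p-values therefore measure only the spread between these samples, which may be technical. That spread was taken from a trend shared by genes of like brightness, and not from each gene's own replicates.

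The respiratory chain carries electrons from NADH, through complex I, and from succinate, through complex II, to complexes III and IV, where oxygen is reduced, and the proton gradient built on the way drives the ATP synthase. Most subunits are encoded in the nucleus and are needed in every cell with mitochondria. A few subunits of complex IV, the cytochrome c oxidase, exist as pairs of isoforms, of which one is found in most tissues and the other mainly in a few: Cox8b, Cox6a2 and Cox7a1 in heart and skeletal muscle, Cox6b2 and Cox8c in testis, and Cox4i2 in lung. Neural stem cells are known to rely on glycolysis more than their neuronal progeny, which depend on oxidative phosphorylation.

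Values are the linear signals that the authors deposited. The median signal of an array lay between 92.2 and 132.6, and since arrays were not brought to a common brightness, a shift of all genes of an array counts as spread. All 12 of 12 defining markers of striated muscle on the array, among them Ckm, the muscle creatine kinase, stayed below a signal of 51.1 on every array, as did 5 of 5 defining markers of brown fat; a longer list of muscle genes, some of them above that signal, is described at the end. The neural stem cell markers Nes, the intermediate filament nestin, and Sox2, a stem cell transcription factor, were measured on all arrays, at 1371 to 3428 and at 1239 to 2307. Of the 10 such markers on the array, 2 stayed below 51.1 on every array, Prom1 and Hes5. Of 8 oligodendrocyte markers, 4 stayed below that signal on every array, while Olig1 lay at 6677 to 8236 and Olig2 at 2648 to 4095. In RNA from whole cultures, fewer cells of a type and less RNA per cell cannot be told apart.

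Most members were bright, and their group means hardly differed. Of the 79 genes, 71 had a mean log2(signal + 16) of 9 or more, equal to a signal of 496, and 8 were dimmer: Cox4i2, Cox7a1, Cox7c, Cox8b, Cox6b2, Cox6a2, Cox8c and Ndufb1. The difference between the highest and the lowest of the 8 group means had a median of 0.30 (log2) over the 77 members that passed the filter on dim genes, against 0.60 over all 7619 genes tested. It exceeded 1 in 3 of the 77 members, all of them tissue-restricted isoforms of complex IV, against 16.2% of all genes tested. These were Cox8b with 2.92, Cox6a2 with 1.46 and Cox6b2 with 1.01. Brighter genes varied less on these arrays, members or not: among genes with a mean log2 signal between 11 and 12, the span had a median of 0.31 over 44 members and of 0.45 over all 503 genes in that range, and 5 of the 44 members lay above the latter. Between 12 and 13, the medians were 0.24 over 18 members and 0.30 over 165 genes.

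**Figure D1:**
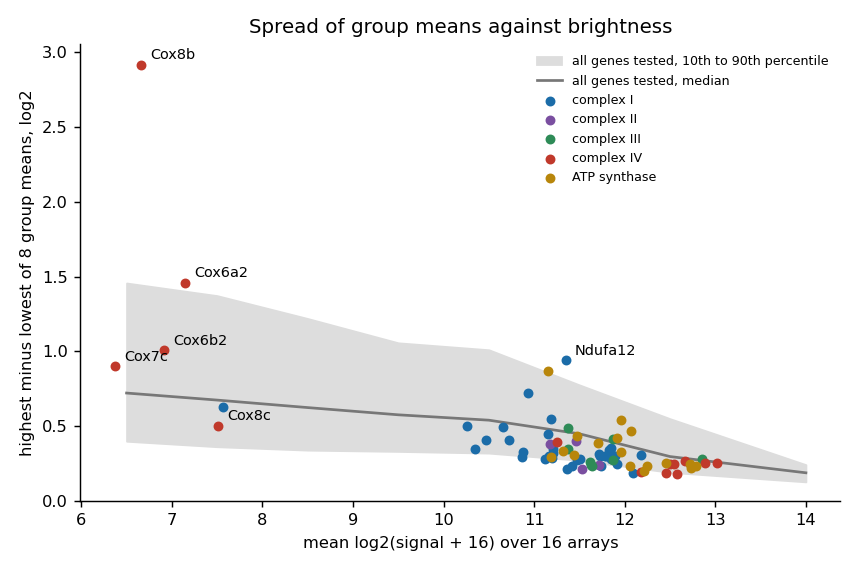
The spread of the 8 group means (highest minus lowest, log2) is plotted against mean log2(signal + 16) over 16 arrays, with 1 point per member coloured by complex; the grey band holds the 10th to 90th percentile of all genes tested, in bins of brightness, and the line their median. Cox8b stands at 2.92, far above the band, while most of the bright members lie between the band's lower edge and its median.

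Probe sets differ in brightness for reasons other than abundance, so the members below, whose probe sets had the highest and the lowest mean signal of their complex, are examples of the range and not an order of abundance. In complex I the brightest probe set was that of Ndufa4, a small subunit first assigned to complex I and later to complex IV, with signals of 3919 to 5187 and a median of 4754 over the 16 arrays. The dimmest was that of Ndufb1, an accessory subunit of the membrane arm, at 98.1 to 245 with a median of 177. The extremes of complex II were Sdhb, the iron-sulphur subunit, at 2841 to 3976, and Sdhc, a membrane anchor, at 1810 to 2753. Those of complex III were Uqcrb, which lies near the ubiquinone site, at 6330 to 8254, and Uqcrc1, a core protein, at 1976 to 3181. In complex IV they were Cox7a2 at 7202 to 9358 and Cox4i2 at 1.56 to 40.1. In the ATP synthase they were Atp5a1, the catalytic head's alpha subunit, at 5996 to 7760, and Atp5md, a small membrane subunit also known as DAPIT, at 1427 to 3328. The 2 genes below the filter, Cox4i2 and Cox7a1, are described without a test.

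The first comparison asked what 4OHT changed in cultures with CreER, over both times together. Cox8b and Cox6b2 rose, and the other 75 tested members did not pass the test. In these calls, made by limma with Benjamini-Hochberg adjustment over all genes tested, 2 members were higher, where 4% of all genes tested were higher, and 0 were lower, where 8.36% of all genes were lower. At an unadjusted p below 0.05 there were 2 higher and 1 lower, which made 3.9% of the members, against 25.4% of all genes tested. The median change of the 77 members was 0.04, against -0.07 over all genes. By complex the medians were 0.03 for complex I, 0.05 for complex II, 0.06 for complex III, 0.04 for complex IV and 0.03 for the ATP synthase, and the 71 bright members ranged from -0.18 to 0.21.

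Cox8b, the heart and muscle isoform of subunit VIII, was singled out from the rest with its response already known from these arrays, so its values are a description of that response and not independent evidence of it. In CreER cultures under vehicle its signal was 44.3 and 22.7 at 36 h and 24.7 and 11.8 at 60 h, all below the filter's signal of 51.1. With 4OHT it was 56.2 and 87.6 at 36 h and 140.2 and 145.3 at 60 h. The 4OHT arrays lay above the vehicle arrays at each time without overlap. The change was 1.54 ± 0.16 (SE; limma adjusted p = 5.42e-18) on the log2(signal + 16) scale over both times, a scale that understates the change of dim genes. Because all 4 vehicle signals lay below the filter, the size depended on the pseudocount: it was 2.05 with a pseudocount of 1 and 0.91 with 64, and the call held in all 9 alternatives. The other 76 tested members had a median change of 0.03. Since Cox8b passed the filter through the groups in which it was bright, its passing is no result in itself.

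Cox6b2, the testis isoform of a subunit that faces the space between the membranes, had signals of 62.0 and 74.2 in CreER vehicle cultures at 36 h and of 78.1 and 80.8 at 60 h. With 4OHT they were 108.8 and 121 at 36 h and 142.8 and 162.7 at 60 h. All 4 arrays with 4OHT lay above all 4 with vehicle. The change over both times was 0.73 ± 0.16 (SE; limma adjusted p = 1.26e-04).

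At 36 h alone, 2 members were higher with 4OHT, Cox8b and Cox6a2, where 1.12% of all genes were higher, and 0 were lower, where 1.5% were lower. Cox8b changed by 0.84 ± 0.23 (adjusted p = 0.0191), a call that ended without the second vehicle array (0.52, adjusted p = 0.567) or without the second 4OHT array (0.58, adjusted p = 0.644), and with no filter or a pseudocount of 64 (0.48, adjusted p = 0.064). Cox6a2, the muscle isoform of a regulatory subunit, had vehicle signals of 74.8 and 80.5 and 4OHT signals of 134.3 and 140.7, which did not overlap. Its change was 0.71 ± 0.21 (limma adjusted p = 0.0368). Leaving out any of the 4 arrays compared, or the first vehicle array of the cultures without Cre at 36 h, ended that call. So did using no filter or the replicate number as a block (limma adjusted p up to 0.222). The most negative value belonged to Cox7c, a subunit found in most tissues, whose probe set was dim on this array: its vehicle signals were 72.5 and 78.8 and its 4OHT signals 35.4 and 44.4, a difference of -0.72 ± 0.24 that did not pass (adjusted p = 0.0861), and that did pass after quantile normalization (-0.77, adjusted p = 0.00754). A second Cox7c probe set, dimmer than the filter, had a difference of -0.27 over both times, and -0.36 was that of the first.

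At 60 h, 2 members were higher, Cox8b and Cox6b2, where 2.36% of all genes were higher, and 0 were lower, where 4.63% were lower. Cox8b changed by 2.24 ± 0.23 (adjusted p = 8.68e-19) and kept its call in every fit with 1 array left out, at 1.96 to 2.52; with pseudocounts of 1 and 64 it was 2.99 and 1.33. Cox6b2 changed by 0.82 ± 0.22 (limma adjusted p = 0.00665). This call was lost without the first CreER vehicle array or the second CreER 4OHT array of that time. With no filter and with only the 4 arrays compared in the fit it was lost as well (limma adjusted p up to 0.153). Cox6a2, in contrast to its values at 36 h, was bright with vehicle as well: its signals were 276 and 211 with vehicle and 187 and 231 with 4OHT, which overlapped, and the difference was -0.20 (adjusted p = 0.66). Cox8c, the testis isoform of the same subunit as Cox8b, had signals of 172 and 236 with vehicle and 158 and 146 with 4OHT, a difference of -0.37 that did not pass (adjusted p = 0.293).

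**Figure D2:**
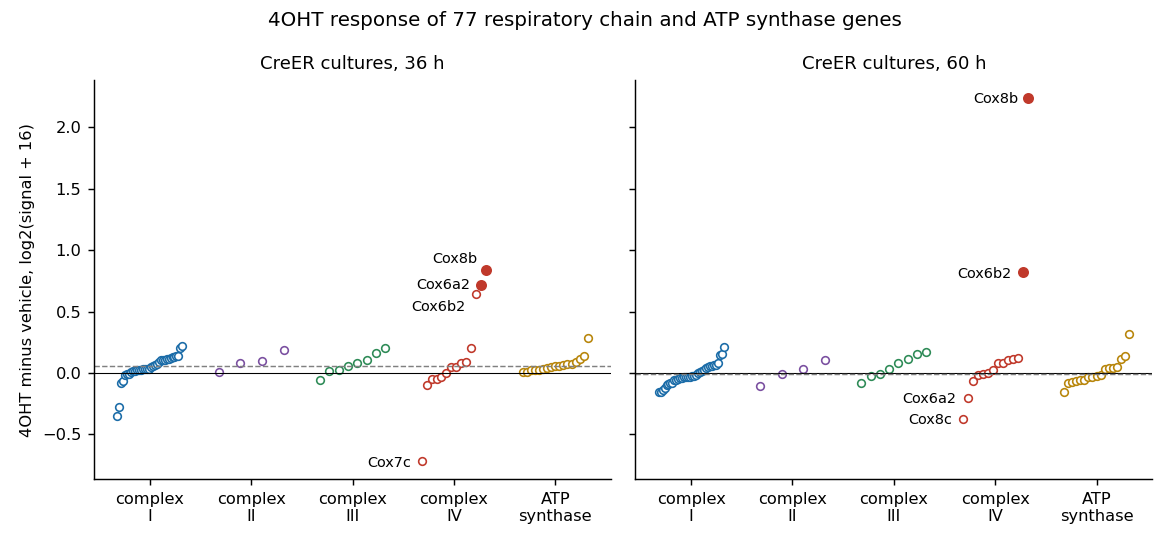
Each point is 1 of 77 tested members, placed by complex, with its 4OHT minus vehicle difference in CreER cultures on the log2(signal + 16) scale at 36 h (left) and 60 h (right); filled points passed the limma test, the dashed line is the members' median. Nearly all members lie close to 0, and Cox8b stands apart at 0.84 and 2.24.

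The rise of Cox8b was compared between the times. The difference between the response at 60 h and that at 36 h was 1.40 ± 0.33 (limma adjusted p = 0.0163), and Cox8b was the 1 member higher, where 0.0919% of all genes were higher; 0 members were lower, where 0.105% were. The call was lost without the first CreER vehicle or 4OHT array at 36 h, or without the second CreER vehicle or 4OHT array at 60 h, with values of 1.08 to 1.72 over the fits that left out 1 array. It was also lost with no filter (adjusted p = 0.612) and with a pseudocount of 64 (0.86, adjusted p = 0.0522). The same difference for Cox6a2 was -0.92 (adjusted p = 0.346), and for Cox6b2 it was 0.18 (adjusted p = 1).

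The widely expressed partners of these isoforms did not pass in any of the 13 comparisons made on the signals as deposited. Cox8a, the partner of Cox8b, had signals of 4958 to 6664 over the 16 arrays and changed by 0.02 (adjusted p = 0.939) with 4OHT in CreER cultures over both times. Cox6b1, the partner of Cox6b2, ranged from 5497 to 7362 and changed by 0.08, and Cox6a1, the partner of Cox6a2, ranged from 5321 to 6683 and changed by 0.04. Cox4i1 changed by 0.10 and Cox7a2 by -0.08. Cox4i2 and Cox7a1 were below the filter, with signals of 1.56 to 40.1 and of 28.4 to 85.0. After quantile normalization, a change of 0.10 passed the test for Cox6b1 (adjusted p = 0.016), and none did for Cox8a or Cox6a1 in that comparison.

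**Figure D3:**
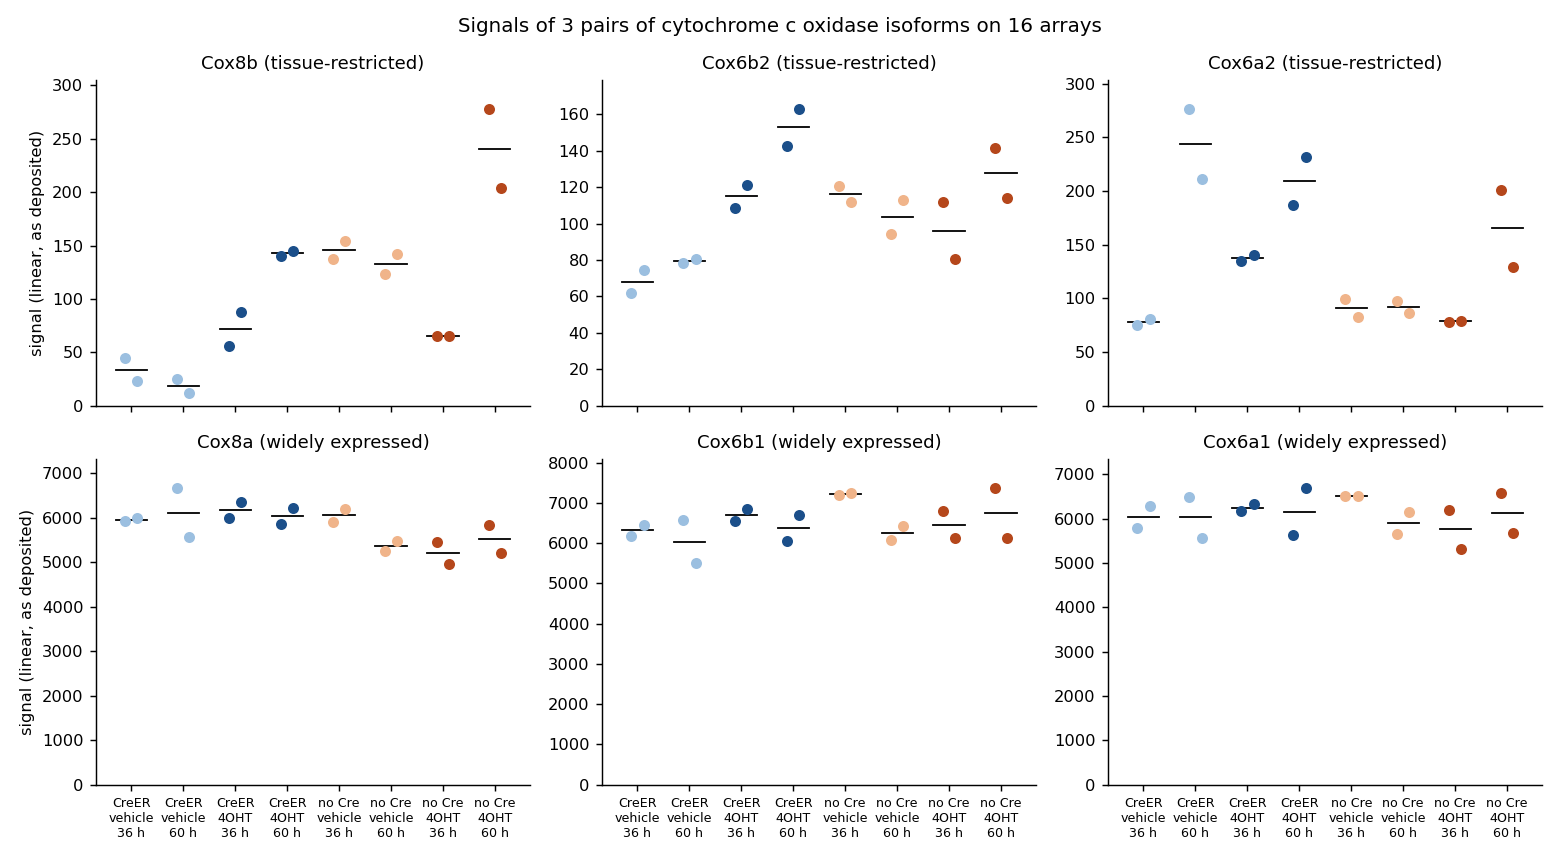
Linear signals of 3 tissue-restricted isoforms (top) and their widely expressed partners (bottom) in the 8 groups, with 1 point per array, a bar at the mean of 2 arrays and axes from 0 that differ between panels. Cox8b runs from 11.8 to 278 over the 16 arrays and Cox8a from 4958 to 6664.

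The promoters of 2 of the isoforms that rose and of their partners are shown because these genes of paired function differ in their response. The sequences come from RefSeq for assembly GRCm38.p6 and run from 250 bases before to 50 bases after the annotated start, 5′ to 3′ on the gene's strand, which is the minus strand for all 4. Capitals mark matches to the letters searched for. In Cox8b these are CAGCTG, letters of the E-box of muscle and neural bHLH factors, and TATAAA, letters of the TATA box. In Cox8a and Cox6b1 they are CCGGAAG or its reverse complement, the core of ETS factors such as GABP.
Cox8b, chr7:140900397-140900696: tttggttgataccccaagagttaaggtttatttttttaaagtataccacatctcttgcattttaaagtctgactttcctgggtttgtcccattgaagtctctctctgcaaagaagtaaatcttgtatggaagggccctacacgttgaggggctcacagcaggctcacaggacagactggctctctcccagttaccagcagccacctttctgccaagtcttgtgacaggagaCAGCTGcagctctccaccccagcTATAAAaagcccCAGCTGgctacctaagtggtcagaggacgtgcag
Cox8a, chr19:7217567-7217866: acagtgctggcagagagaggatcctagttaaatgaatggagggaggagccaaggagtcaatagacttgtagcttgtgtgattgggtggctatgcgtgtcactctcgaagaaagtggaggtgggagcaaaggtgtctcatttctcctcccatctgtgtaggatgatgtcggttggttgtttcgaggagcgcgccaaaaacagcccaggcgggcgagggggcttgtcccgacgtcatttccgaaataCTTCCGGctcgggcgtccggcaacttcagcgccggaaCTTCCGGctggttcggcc
Cox6b2, chr7:4753045-4753344: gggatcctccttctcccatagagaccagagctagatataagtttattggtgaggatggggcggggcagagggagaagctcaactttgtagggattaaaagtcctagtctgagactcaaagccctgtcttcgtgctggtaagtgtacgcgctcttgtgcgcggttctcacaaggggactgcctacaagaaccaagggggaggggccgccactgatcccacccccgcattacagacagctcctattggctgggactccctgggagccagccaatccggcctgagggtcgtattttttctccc
Cox6b1, chr7:30626065-30626364: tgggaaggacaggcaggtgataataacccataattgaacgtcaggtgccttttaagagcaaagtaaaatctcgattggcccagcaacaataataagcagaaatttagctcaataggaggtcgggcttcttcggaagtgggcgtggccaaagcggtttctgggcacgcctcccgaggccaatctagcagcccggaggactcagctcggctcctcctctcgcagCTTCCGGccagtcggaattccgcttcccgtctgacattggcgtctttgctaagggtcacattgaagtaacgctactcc
The letters were chosen with the sequences in view, and a match is a description, not a site. Cox8b held 1 TATAAA and 2 CAGCTG but only 2 CpG, and Cox8a held 2 matches to CCGGAAG and 19 CpG. The TATAAA of Cox8b lay at bases 5 to 10 after the annotated start. Its CAGCTG matches lay at -19 to -14, before the start, and at 17 to 22, after it. The Cox6b2 promoter held 0 of the searched letters and 10 CpG, and that of Cox6b1 held 1 match to CCGGAAG and 17 CpG. The Cox8b gene itself lies at chr7:140898942-140900446.

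Over both strands of these 300 bases, RefSeq entries were found for 65 of the 79 members, against 27025 genes in all. GCGCANGCG, the letters of the NRF1 site, were found in 26.2% of the members' promoters and in 7.03% of all genes' promoters. CCGGAAG was found in 26.2% against 9.93%, AAGATGGC, the letters of YY1, in 13.8% against 3.19%, and AAGGTCA, those of the estrogen-related receptors, in 10.8% against 5.38%. TATAAA was found in 10.8% of the members' promoters against 15.7%, and CAGCTG in 9.23% against 18.3%. The median promoter of a member held 19 CpG and 58.5% G and C, against 7 CpG and 52.7% over all promoters. NRF1, GABP and YY1 are known regulators of nuclear genes for respiration.

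Quantile normalization, which gives every array the same distribution of signals, brought more of the small differences past the threshold without making them large. In CreER cultures over both times it called 26 members higher, where 19.6% of all genes were higher, and 1 lower, where 19.2% were lower. Of the 34 complex I genes 10 were higher, with 2 of 4 in complex II, 5 of 8 in complex III, 6 of 14 tested in complex IV and 3 of 17 in the ATP synthase. Among these, Cox7a2l, a factor that joins complexes into supercomplexes, was higher by 0.21, Sdhc by 0.21, Ndufa1, a subunit of the membrane arm of complex I, by 0.19, and Uqcrh, the hinge protein of complex III, by 0.19. The single lower member was Ndufs1, the largest subunit of complex I, at -0.10. Cox8b was higher by 1.64 and Cox6b2 by 0.81. The members' median was 0.07, and that of all genes 0.00. At 36 h the split after quantile normalization was 11 higher and 2 lower, against 9.7% and 11.7% of all genes, and at 60 h it was 17 higher and 0 lower, against 16.2% and 13.5%.

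**Figure D4:**
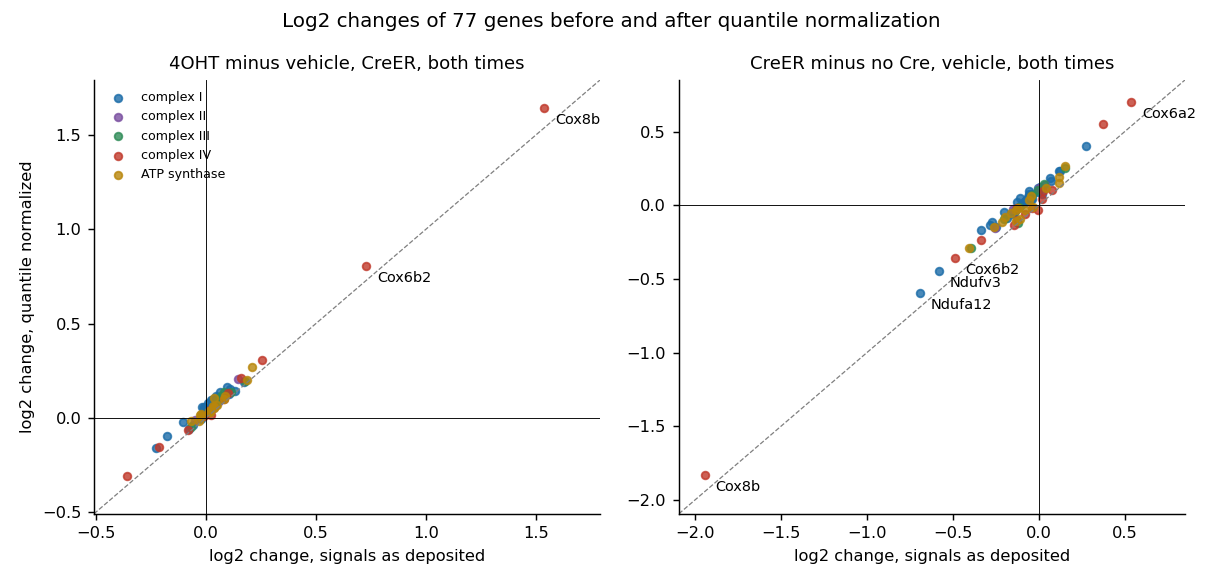
Log2 changes of the 77 tested members from signals as deposited (horizontal) and after quantile normalization (vertical), for the 4OHT response of CreER cultures, times combined (left) and for CreER against no Cre under vehicle (right); the dashed line marks equal values. Points lie along the dashed line with a small shift upwards, so Cox8b, at 1.54 and 1.64 on the left, keeps its place.

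The cultures without Cre show what 4OHT did where no recombinase was present. Over both times, limma called 0 members in either direction, where 0.0131% of all genes were higher and 0.0525% were lower. At an unadjusted p below 0.05 there was 1 higher and 0 lower, or 1.3% of the members against 2.94% of all genes. After quantile normalization the count of adjusted calls was again 0. Cox8b had signals of 137 and 154 with vehicle at 36 h, 65.6 and 64.9 with 4OHT at 36 h, 124 and 142 with vehicle at 60 h, and 278 and 204 with 4OHT at 60 h. Its 4OHT arrays were thus below the vehicle arrays at 36 h and above them at 60 h, without overlap at either time, and the mean over both times was -0.11 (adjusted p = 1). At 36 h alone its change was -0.99 ± 0.23 (adjusted p = 0.0493). It was the 1 member lower, where 0.0394% of all genes were lower, and 0 members were higher, where 0% of all genes were. That call was lost after median scaling (-0.84, adjusted p = 0.579) and after quantile normalization (-0.79, adjusted p = 0.575), as well as in 9 of the 16 fits with 1 array left out, and over the alternatives its adjusted p reached 0.894. On these same arrays 63 of the 77 tested members had both 4OHT signals below both vehicle signals, as did 52.2% of all genes tested, and the median change of all genes was -0.15. At 60 h the 4OHT signals were both above for 15 of the 77, and for 15.4% of all genes. At 60 h alone Cox8b changed by 0.77 (limma adjusted p = 0.212). After adjustment 0 members were called, where 0.131% of all genes were called higher and 0.0394% lower. At an unadjusted p below 0.05 there were 5 higher and 0 lower, or 6.49% of the members against 4.73% of all genes.

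The other isoforms that rose in CreER cultures followed the same order without Cre, and none of these differences passed the test. Cox6b2 had signals of 120.6 and 112 with vehicle and 111.8 and 80.3 with 4OHT at 36 h, and of 94.0 and 112.8 with vehicle and 141.5 and 114.2 with 4OHT at 60 h. Its 4OHT arrays lay below the vehicle arrays at 36 h and above them at 60 h without overlap, with differences of -0.25 (adjusted p = 0.834) and 0.27 (adjusted p = 1). Cox6a2 had signals of 99.1 and 82.2 with vehicle and 78.2 and 78.8 with 4OHT at 36 h, and of 97.3 and 86.1 with vehicle and 201 and 129 with 4OHT at 60 h. Its arrays were ordered in the same way, with differences of -0.17 (adjusted p = 0.834) and 0.72 (adjusted p = 0.2), the latter past the threshold after quantile normalization (0.73, adjusted p = 0.0132).

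The response in CreER cultures exceeded that without Cre for 2 members, Cox8b and Cox6b2, where 1.52% of all genes had the greater response in CreER cultures, and was smaller for 0 members, where 0.814% of all genes had a smaller one. For Cox8b the difference was 1.65 ± 0.23 (limma adjusted p = 9.32e-10). Tested at each time, a comparison added after the data were seen, it was 1.83 ± 0.33 at 36 h (adjusted p = 4.10e-05) and 1.47 ± 0.33 at 60 h (adjusted p = 0.00264), the latter lost without the second 4OHT array of the cultures without Cre at 60 h (adjusted p = 0.0587). With no filter both calls were lost (adjusted p = 0.205 and 0.232), and a pseudocount of 64 ended that at 60 h (0.71, adjusted p = 0.0787). Cox8b was the 1 member called at each time, where 0.906% of all genes were higher and 0.0263% lower at 36 h, and 0.499% higher and 0.473% lower at 60 h. For Cox6b2 the difference over both times was 0.72 ± 0.22 (adjusted p = 0.0476). This call was lost in 11 of the 16 fits with 1 array left out, in which the adjusted p reached 0.236, as well as with no filter, with a pseudocount of 1 and with the replicate number as a block. After quantile normalization, 10 members were higher and 1 lower, against 9.07% and 10.1% of all genes.

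Under vehicle, the CreER cultures differed from those without Cre in more members. Here 2 members were higher in CreER cultures, where 7.97% of all genes were, and 7 were lower, where 26.6% of all genes were. The ratio of the 5′ to the 3′ actin probe sets, a sign of RNA integrity, was 0.773 and 0.716 in CreER and 0.593 and 0.666 in the other vehicle cultures at 36 h, and 0.882 and 0.862 against 0.788 and 0.773 at 60 h; its part in these differences was not tested. Cox8b changed by -1.94 ± 0.16 (adjusted p = 1.04e-30), from the signals given above: 11.8 to 44.3 on 4 CreER arrays and 124 to 154 on the 4 without Cre. With pseudocounts of 1 and 64 the change was -2.52 and -1.19. With 4OHT at 60 h the CreER cultures, at 140.2 and 145.3, were within the range of the vehicle cultures without Cre. Cox6b2 differed by -0.49 (adjusted p = 0.00783). Cox6a2 was higher by 0.54 (adjusted p = 0.00198), which came from the CreER arrays at 60 h, at 276 and 211, since at 36 h it had 74.8 and 80.5 in CreER cultures and 99.1 and 82.2 without Cre. Cox8c was higher by 0.37 (limma adjusted p = 0.0299), with signals of 157 to 236 in CreER cultures and 119 to 178 without Cre, which overlapped. Its call was kept in only 12 of the 16 fits with 1 array left out, among which the value ran from 0.24 to 0.50.

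Among the widely expressed subunits, 5 were lower in CreER cultures under vehicle. Ndufa12, an accessory subunit of complex I, had signals of 1871 to 2262 on 4 CreER arrays and 2866 to 3667 on 4 arrays without Cre, which did not overlap, and changed by -0.69 ± 0.12 (adjusted p = 2.87e-08). Ndufv3, an accessory subunit next to the NADH site, had signals of 1438 to 1752 and 2099 to 2612, also without overlap, and changed by -0.58 ± 0.12 (adjusted p = 1.57e-05). Atp5md changed by -0.41 (adjusted p = 0.00289), Uqcrc1 by -0.40 (adjusted p = 0.00276) and Atp5k, the small subunit e of the ATP synthase, by -0.26 (adjusted p = 0.0417). The call of Atp5k was lost in 7 of 9 alternatives and in 9 of 16 fits with 1 array left out, among which the value ran from -0.50 to -0.025, the latter without the second CreER vehicle array at 60 h (adjusted p = 0.903). ND5, a complex I subunit encoded in mitochondrial DNA and the 1 such gene measured, changed by -0.68 (adjusted p = 5.92e-10).

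The Ndufa12 value rested on the probe set used. A second bright probe set changed by -0.45, and another bright one by 0.19 in the opposite direction, while the last was below the filter with signals up to 21.4. The mean of the probe sets changed by -0.22 (adjusted p = 0.180). Of 42 genes with more than 1 probe set above the filter, 16 had probe sets of opposite sign in this comparison. The widest disagreement, singled out after its values were seen, was that of Ndufv1, the NADH-binding core subunit of complex I, whose 3 probe sets changed by -0.06, -1.25 and -0.87.

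**Figure D5:**
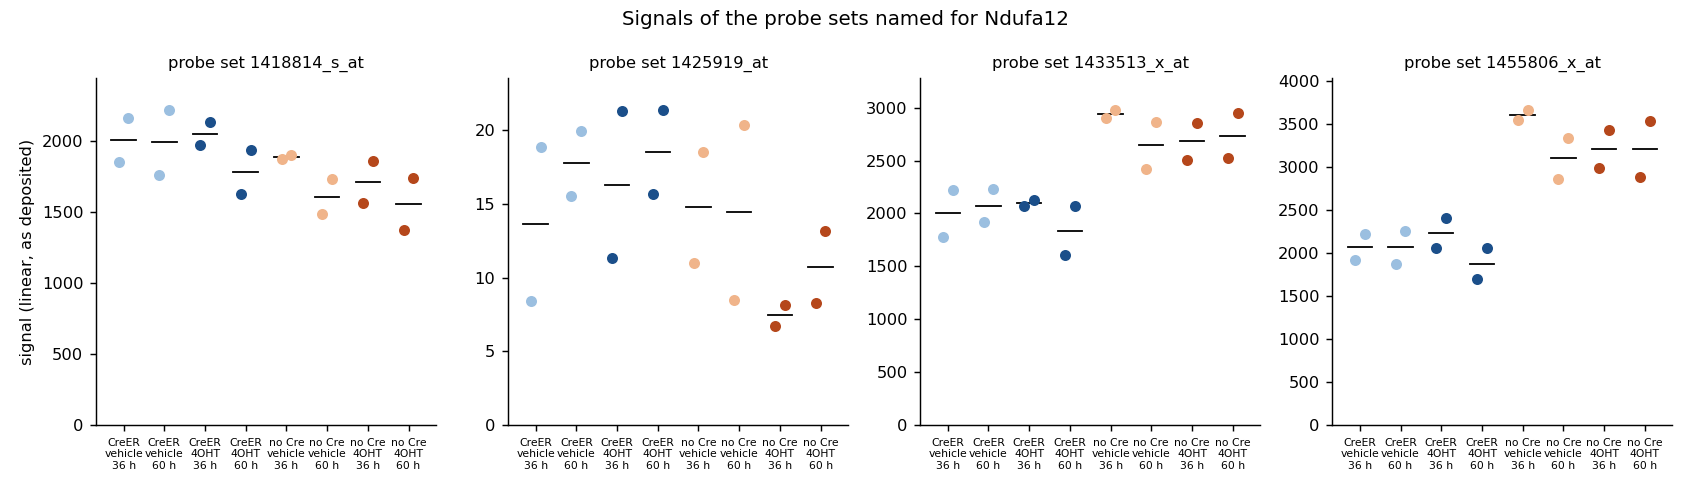
Linear signals of the 4 probe sets named for Ndufa12 in the 8 groups, with 1 point per array and a bar at the mean of 2 arrays. The 2 right-hand probe sets are lower in all CreER groups than in all groups without Cre, the left one is not, and the second is near background with signals up to 21.4.

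Scaling between arrays changed the number of members called and the balance between higher and lower ones, while the members named above kept their direction. The split was 22 higher and 19 lower after quantile normalization, against 29.2% and 26.1% of all genes, and 29 higher and 6 lower after median scaling, against 28.7% and 23.4%. Cox8b, Ndufa12, Ndufv3, Cox6b2, Atp5md and Uqcrc1 were lower and Cox6a2 and Cox8c higher after quantile normalization too, with Cox8b at -1.83 and Ndufa12 at -0.59. Among the other widely expressed members, Ndufa6, an accessory subunit of complex I, was higher by 0.40 and Atp5g1, which encodes the c ring subunit, by 0.27.

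Between 36 h and 60 h, few members changed in either genotype. In CreER cultures, over both treatments, Cox6a2 was higher at 60 h by 1.002 ± 0.15 (limma adjusted p = 1.61e-08), where 1.69% of all genes were higher. Atp5md changed by -0.49 (limma adjusted p = 0.00156), where 3.58% were lower. The call of Atp5md in CreER cultures was lost with no filter (limma adjusted p = 0.114). Leaving out the second 4OHT array at 36 h or the first at 60 h ended it too. Without Cre, Cox8b was higher at 60 h by 0.76 (adjusted p = 2.37e-04), where 2.52% of all genes were higher, and Atp5md changed by -0.39 (adjusted p = 0.0306), where 1.58% were lower. That call of Atp5md was lost in 8 of 16 fits with 1 array left out, with no filter, with no variance trend and with the replicate number as a block. After quantile normalization 5 members were higher and 3 lower in CreER cultures, against 11.2% and 11.6% of all genes, and 13 and 3 without Cre, against 12.3% and 14.8%. After median scaling the split without Cre was 3 higher and 33 lower, against 6.58% and 39.6%. The ratio of the 5′ to the 3′ actin probe sets, which falls as RNA is degraded, was 0.548 to 0.666 on the 4 arrays without Cre at 36 h and 0.716 to 0.891 on the other 12, and the same ratio for Gapdh was 0.822 to 1.12 against 1.17 to 1.26. With the actin ratio in the fit, Cox8b without Cre no longer passed and Atp5md changed by 0.24, the opposite sign. In that fit 0 members were called without Cre, with the share of all genes not given here. On the arrays without Cre the ratio was 0.773 to 0.891 at 60 h, without overlap with 36 h. Ratio and time therefore cannot be told apart across the groups without Cre. The fit took the effect of the ratio only from differences between replicates of the same group. The change of Cox8b without Cre stayed at 0.57 to 0.86 over the alternatives.

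Genes around the respiratory chain were counted in the same way, beside the 4% of all genes that were higher and the 8.36% that were lower with 4OHT in CreER cultures over both times. Of 42 tested assembly factors, cytochrome c genes and carriers, 0 rose and 2 fell: Dhodh, which passes electrons to ubiquinone while making pyrimidines, by -0.45 (adjusted p = 0.0152), and Ndufaf4, a complex I assembly factor, by -0.40 (adjusted p = 0.0249). Of 27 tested regulators of respiratory genes and mitochondrial DNA, 1 rose, the transcription factor Foxo3 by 0.93, and 1 fell, Foxo1 by -0.41. Of 22 genes of the citrate cycle and pyruvate entry, 1 rose and 1 fell, both kinases that shut pyruvate out of the cycle: Pdk2 by 0.54 (adjusted p = 0.00639) and Pdk1 by -0.59 (adjusted p = 3.57e-04). After quantile normalization the counts of higher and lower genes were 9 and 4 of the 42, 4 and 9 of the 27, and 7 and 1 of the 22, where 19.6% and 19.2% of all genes were called. Between genotypes under vehicle, where 7.97% of all genes were higher and 26.6% lower, they were 2 and 7 of the 42, 1 and 7 of the 27, and 1 and 3 of the 22. In that comparison Pdk1 was higher in CreER cultures by 1.57, Pcx, pyruvate carboxylase, was lower at -1.16, and Ndufaf3, another complex I assembly factor, was lower at -1.02.

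Since Cox8b and Cox6a2 are best known from muscle, genes of striated muscle and brown fat were described beside them. Of 50 other such genes on the array, 6 passed the filter. Of the 6, 3 rose with 4OHT in CreER cultures over both times, where 4% of all genes tested rose. These were Pygm, muscle glycogen phosphorylase, by 1.32, Hrc, a calcium-binding protein of the sarcoplasmic reticulum, by 0.85, and Eno3, muscle enolase, by 0.68. The list was chosen with earlier results of these data known and few of its genes could be tested, so the count is a description only. The defining markers of muscle stayed below the filter, as given above. Their summed signal was 134.5 to 199 in CreER cultures with vehicle and 141.5 to 182 with 4OHT, which overlapped. Brown fat markers summed to 62.5 to 71.3 and 52.9 to 66.9. Cox7a1, a further muscle isoform, had signals of 28.4 to 50.2 in CreER cultures and changed by 0.00 with 4OHT, without a test.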

How the data were processed

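RNA from 16 cultures was hybridised to 16 one-colour Affymetrix arrays. The values are linear signal intensities per probe set, deposited by the authors as MAS5 output, per the submitters' processing notes; MAS5's version and scaling target are not given in the sources used here. Gene symbols came from the platform annotation. Of 22690 probe sets, 64 controls were left out, the brightest single-symbol probe set stood for each gene, and genes with a mean log2(signal + 16) under the 40th percentile, 6.07, were not tested. The 8 groups, with 2 arrays each, were fitted together on log2(signal + 16), with no scaling between arrays, in limma 3.58.1 (R 4.3.3; eBayes with a mean-variance trend; Benjamini-Hochberg over 7619 genes; threshold 0.05). The prior degrees of freedom were infinite, so the shared trend set each gene's variance. The script was tested on simulated data. Precision is limited by there being so few arrays.

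The members and gene lists were chosen with earlier results of these data known, and the limit of 9 for bright genes and the comparisons of single times without Cre, or of responses at single times, were chosen after seeing the data. Named are Cox8b, tissue-restricted isoforms and their partners, each complex's brightest and dimmest member, members past the threshold (at most 12, otherwise those that changed most), members whose probe sets differ in direction, and 2 to 4 genes per list. Ndufa4l2 was not found among the symbols. Alternatives were median scaling, quantile normalization, no filter, pseudocounts of 1 and 64, no variance trend, the mean of probe sets, only the 4 arrays compared, the actin ratio as covariate, a replicate block, and leaving out each array. The labels do not say what a replicate number shares, so the numbers were not taken to pair the arrays. Between same-numbered replicates, deviations from group means correlated at r from -0.12 to 0.31, with a median of -0.02 (28 pairs of groups).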

Additional observations from a re-analysis of the deposited data

Results flagged for a closer look

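The 4OHT response of Cox8b in CreER cultures exceeded that without Cre by 1.65 ± 0.23 (log2, SE; limma adjusted p = 9.32e-10) over both times, by 1.83 at 36 h and by 1.47 at 60 h. With no filter both single-time calls were lost, and with a pseudocount of 64 that at 60 h was 0.71 and lost. Without Cre, both 4OHT arrays lay below both vehicle arrays at 36 h and above them at 60 h. Within CreER cultures, the response of Cox8b at 60 h exceeded that at 36 h by 1.40 ± 0.33 (limma adjusted p = 0.0163), a call lost with no filter, with a pseudocount of 64 and in 4 of 16 fits with 1 array left out (0.86 to 1.87 over the alternatives, adjusted p up to 0.612). The response of Cox6b2 in CreER cultures exceeded that without Cre by 0.72 ± 0.22 (limma adjusted p = 0.0476), a call lost in 11 of 16 fits with 1 array left out, with no filter, with a pseudocount of 1 and with the replicate block. Each of these is a test of the difference between responses, and their causes were not tested.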

How the results depend on the processing

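The counts below are of members alone, and scaling between arrays also changed the calls over all genes. With 4OHT in CreER cultures over both times, 4% of all genes were higher and 8.36% lower as deposited. After quantile normalization these were 19.6% and 19.2%. For most other settings the share of all genes is not given here, so the counts describe the processing and not the members. Of the counts of members called, that for 4OHT without Cre over both times stayed at 0 in every alternative. With 4OHT in CreER cultures over both times the count was 2, against 12 after median scaling, 27 after quantile normalization and 28 after quantile normalization with the replicate block. At 36 h these were 5, 13 and 12, with 4 for no variance trend and for only the 4 arrays compared, 1 for a pseudocount of 64 and 0 for no filter. At 60 h they were 13, 17 and 19, with 1 for no filter and for only the 4 arrays compared. For the response in CreER cultures minus that without Cre, quantile normalization gave 11, and 10 with the block, while no filter and a pseudocount of 1 gave 1; at 36 h median scaling gave 4, quantile normalization 14 with or without the block, and no filter 0; at 60 h they gave 2, 8 and 0, with 0 for a pseudocount of 64. The response at 60 h minus that at 36 h gave 0 for no filter and for a pseudocount of 64. Between genotypes median scaling gave 35 and quantile normalization 41 with or without the block. Between times, CreER cultures gave 5, 8 and, for no filter, 1; cultures without Cre gave 36, 16 and 0, with 15 for quantile normalization with the block, 4 for the mean of probe sets and 0 with the actin ratio. Without Cre at 36 h the count was 0 after median scaling or quantile normalization, with or without the block, with no filter and with a pseudocount of 1; at 60 h it was 3 after median scaling, 14 after quantile normalization, 16 with the block as well, and 1 for no variance trend and for a pseudocount of 64. Scaling removes brightness differences between arrays; the causes of the other shifts were not tested. Cox8b without Cre over both times turned from -0.11 to 0.0065 after quantile normalization, with or without the block, neither called, and Atp5md between times without Cre turned to 0.24 with the actin ratio.

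The replicate block alone gave 1 member at 36 h in CreER cultures, 1 for the response difference, 1 between times without Cre and 0 without Cre at 36 h; the calls lost included those of Cox6a2 at 36 h, Cox6b2 in the response difference and Atp5k between genotypes. Leaving out 1 array gave 2 to 3 members for the 4OHT response of CreER cultures, times combined, 0 to 2 at 36 h and 1 to 2 at 60 h. It gave 0 to 0 without Cre over both times, and 0 to 1 at each time. It gave 1 to 2 for the response difference, 1 to 1 at 36 h and 1 to 2 at 60 h, 0 to 1 for 60 h against 36 h, and 1 to 3 between times in either genotype. Between genotypes it gave 6 to 17, with 17 without the first CreER vehicle array at 60 h. Cox8b kept its calls in all alternatives and leave-outs over both times and at 60 h in CreER cultures, in the response difference over both times and between genotypes. The calls of Cox8c and Atp5md between genotypes were lost with no filter.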
